A study of Drosophila melanogaster with 3 samples.

Results

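The left arm of chromosome 2 (2L) of Drosophila melanogaster carried 897 of the 3990 Yorkie (Yki) peaks listed for S2 cells, or 22.5% of the list. The members are all listed intervals on chromosome 2L, taken with the density measured along the same arm. Among listed intervals, position alone chose them. The list is itself a set of called peaks, taken here to come from the same libraries as the track. Heights and differences from flanks are therefore not free of that choice. S2 is an established cell line of embryonic origin. Chromatin fixed with formaldehyde in the culture medium was immunoprecipitated with anti-Yki in 2 libraries, and 1 input library was made with no antibody. The description fields of these libraries name other material (embryos, and another factor for the ChIP libraries), and titles, sources and antibody entries were followed. No treatment or genotype separates the libraries, so the only contrast is ChIP against input. The header of the density track joins 2 library codes and 1 input code, which match no sample label, and the list names no sample. Both were taken here to combine the ChIP libraries against the input, which the files do not state. Neither gives a value per library, so no value below has a replicate error, and no test between arms or between kinds of peak was made.

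Yki is the growth-promoting coactivator that the Hippo kinase cascade keeps out of the nucleus when the pathway is active. It does not bind DNA by itself and reaches chromatin through partner proteins, of which the TEAD-family factor Scalloped is the best known. Arm 2L is home to several genes of this pathway and its outputs, among them fat, dachsous, expanded and Cyclin E. No annotation or genome sequence of the files' build, dm3, was used here, so peaks are named by position, none is tied to a gene, and no sequence is shown. The numbering of the arm starts at its telomere and ends towards its centromere.

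Density is the authors' score, smoothed and with background subtracted, sampled every 100 bp. Its scale was read from isolated bumps of the track, over all sequences. The most frequent bump above 0 had a top between 0.97 and 1 (1153 bumps), and the most frequent bump below 0 a depth between 0.33 and 0.36 (892 bumps). These were taken as 1 ChIP tag and 1 input tag. Height is the highest sample inside an interval, and under this reading the counting SD of a height is no less than the square root of the height divided by the square root of 2. Reads per library are not known.

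Peaks reached from one end of 2L to the other, but very unevenly. The first interval, at chr2L:5284-6020, began 148 bp after the first sample of the arm and reached a height of 118 (counting SD at least 9.15). The next peak came 46.8 kb later. The last, at chr2L:22961038-22961552, reached 107 and lay 48.1 kb before the end of the track. Over the 23.0 Mb covered, 2L held 39.0 peaks per Mb (95% exact Poisson interval 36.5 to 41.6, counting error only). Arms 3L and 3R held 35.1 (32.8 to 37.5) and 36.1 (33.9 to 38.4). This order depended on how intervals were counted: with those 500 bp apart or less joined, the rates were 30.9 on 2L, 29.6 on 3L and 31.0 on 3R.

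Divided into 23 windows of 1 Mb, the arm held between 10 and 100 peaks per window, with a median of 35. The first Mb, next to the telomere, was the richest, with 100. It was followed by the windows at 12 to 13 Mb (77 peaks), 8 to 9 Mb (73), 16 to 17 Mb (58) and 7 to 8 Mb (56). These 5 windows held 40.6% of the peaks of the arm and 40 of its 70 peaks with a height of 500 or more. The poorest were at 4 to 5 Mb (10 peaks), 14 to 15 Mb (11), 10 to 11 Mb (15), 11 to 12 Mb (17) and 15 to 16 Mb (20), together 8.14% of the peaks. Among these, the rich windows from 7 to 9 Mb were neighbours, as were the poor ones from 10 to 12 Mb and from 14 to 16 Mb. From 17 Mb to 23 Mb the counts lay between 21 and 42. From window to window, the count did not fall steadily from telomere to centromere.

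**Figure D1:**
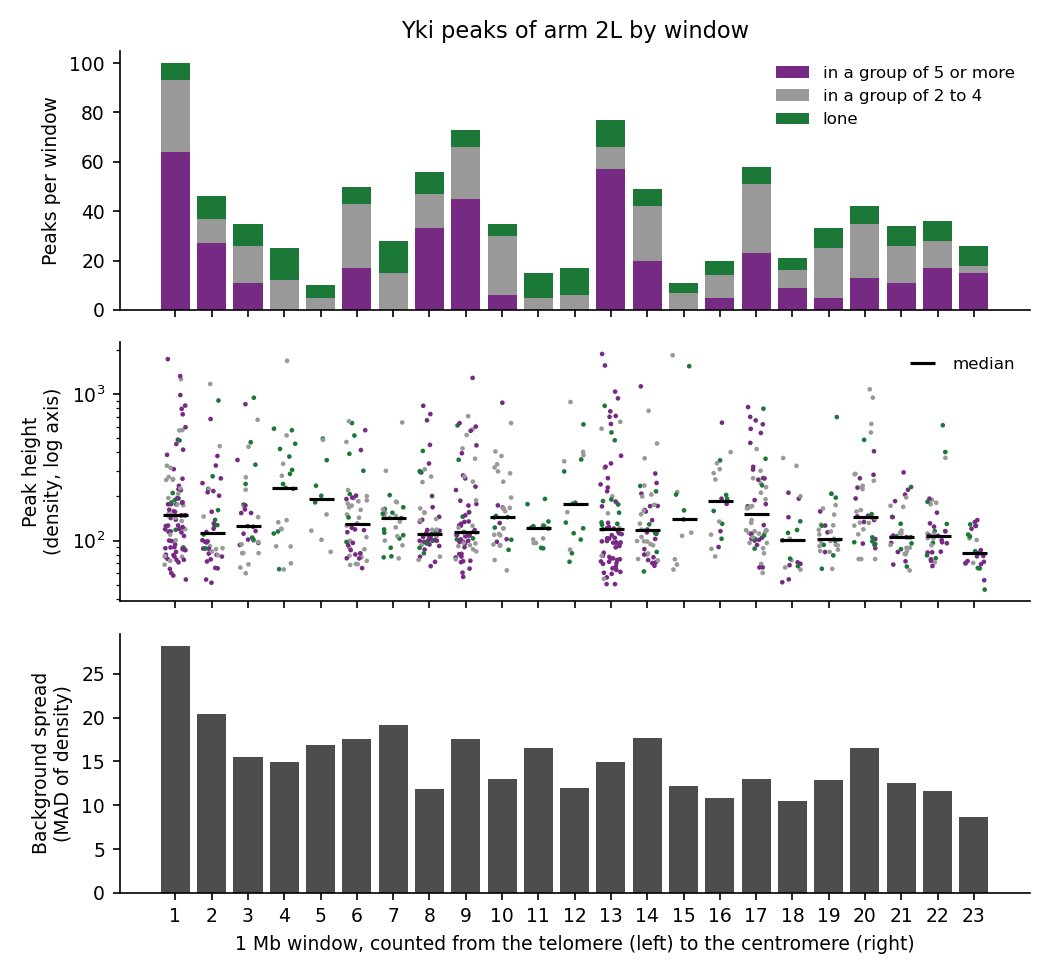
Peaks of 2L in 23 windows of 1 Mb, numbered from the telomere: number of peaks by kind of group (top), height of each peak with the window's median as a bar (middle, log axis), and the median absolute deviation (MAD) of density away from peaks (bottom). The first window stands highest in both the top and bottom panels, with 100 peaks and a MAD of 28.2, and the last window has the lowest median height, 81.9.

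Few peaks did not mean low peaks. The window at 14 to 15 Mb had 11 peaks, yet 2 of them, at chr2L:14409291-14410112 and chr2L:14490064-14491048, reached 1839 and 1549 and are among the 10 highest of the arm. The window at 3 to 4 Mb had 25 peaks with a median height of 229, the highest median of any window, and held the peak of 1686 at chr2L:3545146-3545728. By contrast, the window at 10 to 11 Mb had 15 peaks, the highest of which reached 192. Across the 23 windows the number of peaks and the median height had a Spearman rho of -0.18, and the number of peaks and the highest peak a rho of 0.45. The windows share the same libraries and smoothing, and these are descriptions only.

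Over 3 stretches of the arm, median heights were lower towards the centromere, but not steadily so from window to window. Between the telomere and 8 Mb, 350 peaks had a median height of 134. From 8 to 16 Mb, 297 peaks had a median of 123, and from 16 Mb to the end 250 peaks had a median of 112. The quartiles overlapped, at 93.9 to 221, 95.6 to 215 and 89.2 to 176. The median was 112 in the window at 1 to 2 Mb and 185 at 15 to 16 Mb. Peaks of 500 or more numbered 28, 29 and 13 in these stretches, of which the last was the shortest. All listed peaks came to 43.8, 37.1 and 35.7 per Mb. The window at 22 to 23 Mb had the lowest median of all, 81.9 over 26 peaks, and its highest peak reached 138. The spread of density more than 1 kb from any peak moved along with position: its MAD was 17.7, 14.2 and 12.5 in the 3 stretches, 28.2 in the first Mb and 8.70 in the last. The part of this spread in the number and height of listed peaks was not tested. Across windows, the MAD had a rho of 0.38 with the number of peaks and 0.29 with the median height. The lowest listed peak of a window was 1.92 times the MAD in the first Mb and between 2.53 and 7.23 times in the others.

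Of the 10 highest peaks of 2L, 9 had a single local maximum, and most stood on low ground. The highest, at chr2L:12545099-12546743, reached 1877 (counting SD at least 36.4) and had a second peak of 1567 at chr2L:12542996-12544773 beside it. The mean density 2 to 5 kb beyond it was 104 on the telomere side and 3.19 on the centromere side. The peak of 1839 at chr2L:14409291-14410112 was 822 bp wide, with flanks of 12.7 and 5.46. The peak of 1549 at chr2L:14490064-14491048 had no other listed peak within 10 kb, and its flanks were -20.2 and 15.4. The peak of 1730 at chr2L:489870-491852 had flanks of 144 and 128 and was 1 of a group of 25 peaks.

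The peak at chr2L:3545146-3545728 had flanks of 15.04 and 2.23. The remaining 4 of the 10 lay at chr2L:470334-472732 (height 1326), chr2L:8534759-8536316 (1288), chr2L:221702-222864 (1263) and chr2L:1117934-1119662 (1171). Of all 10, 4 lay before 2 Mb. The width of the density at 50% of its top was 600 to 1000 bp in all 10. Over the 70 peaks of 500 or more, its median was 700 bp, the same as on 3L and 3R. Intervals of tall peaks reached far down their slopes: in the 13 peaks of 1000 or more, the density at the lower edge of the interval was a median of 9.26% of the height, against 84.1% in the 287 peaks under 100.

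Most peaks were low and narrow. The median height was 122, and a single peak of that height has a counting SD no less than 9.28. The quartiles were 93.2 and 202, the 95th percentile was 633 and the lowest height was 46.2. The 90 highest peaks held 37.0% of the summed height. Width ran between 200 and 3369 bp; its median was 420 bp, the lower quartile 290 bp and the upper one 730 bp. Intervals under 300 bp made up 27.4% of the peaks, and the 118 of 1 kb or more made up 13.2% of the peaks and 33.5% of the listed length. Wide peaks were usually tall (Spearman rho 0.79 over 897 peaks that share the track and its smoothing). The median width rose from 271 bp in peaks under 100 to 427 bp at 100 to 200, 779 bp at 200 to 500, 1182 bp at 500 to 1000 and 1558 bp above.

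**Figure D2:**
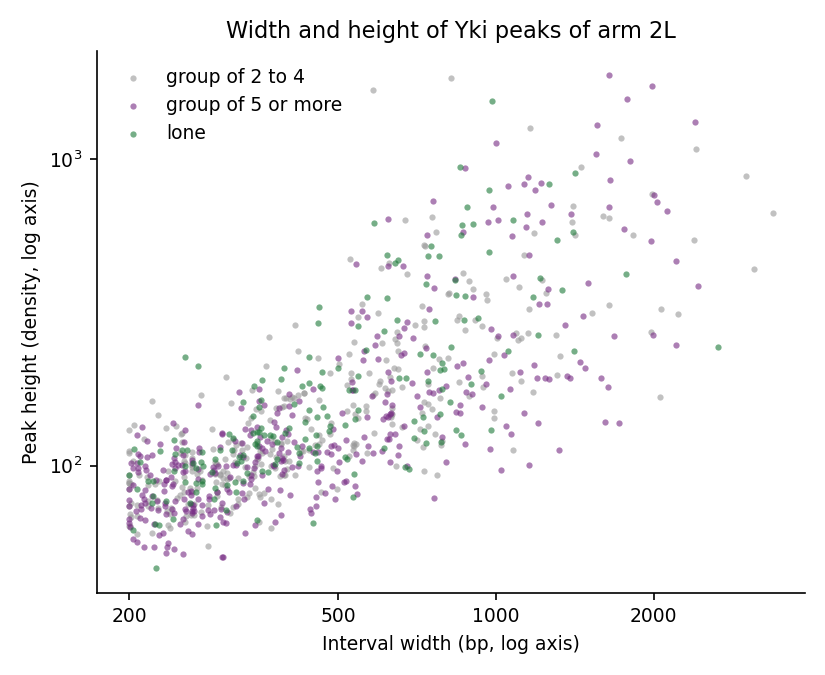
Width (bp) and height (density) of the 897 peaks of 2L, both on log axes, coloured by the kind of group a peak belongs to. The cloud rises from 200 bp and heights of 46.2 upwards, and a few tall peaks lie left of it, such as the one of 1686 over 583 bp.

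Of the 5 widest intervals, 4 had more than 1 local maximum. The widest, at chr2L:2752475-2755843, spanned 3369 bp with a height of 667, a mean density of 331 and 3 local maxima. The next spanned 3102 bp at chr2L:2160921-2164022, with a height of 437, a mean of 321 and 2 maxima. The interval at chr2L:11806113-11809112 spanned 3000 bp and reached 882. One at chr2L:2362715-2365367 reached only 243 over 2653 bp and was a lone peak. The fifth, at chr2L:160152-162583, spanned 2432 bp and had 1 maximum of 385. Of the 16 intervals of 2 kb or more, only 2 had a single maximum, whereas 763 of all 897 did.

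The 3 lowest peaks included 2 that lay below their surroundings. The lowest of all, at chr2L:22179541-22179765, reached 46.2 (counting SD at least 5.72), with flanks of 33.4 and 4.95. Those at chr2L:12511358-12511659 and chr2L:12589015-12589314 each reached 50.4. The flanks of the former were 162 and 57.1 and those of the latter 74.2 and 82.5, all above the listed interval itself. In 109 peaks (12.2%, exact binomial interval 10.1% to 14.5%) the highest sample was no maximum of the track but lay on the slope of a higher one nearby, and in 69 of these the higher maximum belonged to another listed interval. These 109 had a median height of 90.1, and 60 of them were in groups of 5 or more peaks.

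Distances between neighbouring peaks of 2L ranged widely. The median distance between midpoints was 5291 bp, and 49.2% of neighbours were under 5 kb apart. Measured edge to edge, 187 of 896 gaps (20.9%) were 500 bp or less, with a shortest gap of 50 bp, while 61 gaps were 100 kb or more and together took up 11.4 Mb, or 49.7% of the arm. Many of the closest pairs were hardly divided in the smoothed track. In the 187 pairs, the lowest density between the 2 summits was a median of 94.9% of the lower summit. It was 90% or more in 115 pairs and under 50% in only 10. Smoothing can fill dips between close summits, although these pairs were chosen by the gap between edges and not between summits. No dip can appear where an interval's highest sample lies on the slope of its neighbour's maximum. Of all 897 peaks, 69 lay on the slope of a maximum in another listed interval. The part of both in these values was not tested. Joining intervals 500 bp apart or less left 710 regions and moved the median distance to 10087 bp.

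**Figure D3:**
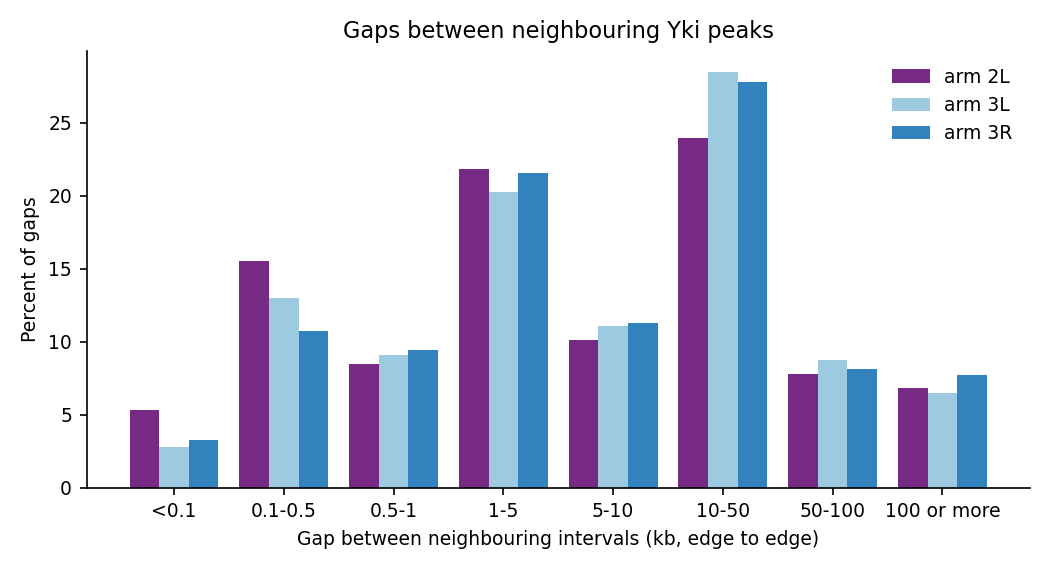
Gaps between neighbouring intervals, edge to edge in kb, as a percent of all gaps of each arm. Gaps under 0.1 kb were 5.36% on 2L, 2.79% on 3L and 3.28% on 3R, and gaps of 10 to 50 kb were 24.0%, 28.5% and 27.8%.

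Long stretches without a peak interrupted the arm. The longest, 477 kb, was chr2L:16888709-17365887, and its density had a median of 4.69, a MAD of 9.87 and a highest sample of 62.2. The others were chr2L:4463632-4810939 (347 kb), chr2L:15913610-16251456 (338 kb), chr2L:21795518-22121654 (326 kb) and chr2L:14689717-14995590 (306 kb). None of the 5 held a sample as high as the median peak of the whole list, 135, and their highest samples ran from 47.8 to 102. The stretch of 347 kb differed from the rest in lying mostly below 0, with a median of -16.5 and 20.9% of samples above 0. In the others the median lay between 0 and 4.69. These were not blank stretches of the track: at most 4.90% of samples in any of the 5 were at 0.

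Chaining peaks less than 10 kb apart, edge to edge, gave 347 sets. Of these, 184 were lone peaks, 124 held 2 to 4 peaks (335 in all) and 39 held 5 or more. The last held 378 peaks, 42.1% of the arm's total (exact binomial interval 38.9% to 45.4%). This interval treats peaks as independent, although the peaks of a group are counted in or out together. These 39 groups spanned 896 kb, or 3.89% of the arm. Their spans ran from 3.58 to 87.3 kb, with a median of 20.5 kb. The largest, at chr2L:12459437-12546743, held 38 peaks with heights from 50.4 to 1877, a median of 98.2 and the tallest as the last. The second, 54.8 kb at chr2L:470334-525157, held 25, of which 2 exceeded 1300 and the median was 157. The third, 30.3 kb at chr2L:7065782-7096085, held 21, with 1 summit of 662, a second highest of 201.3 and a median of 106. The fourth, 38.8 kb at chr2L:13059735-13098570, held 20, and its highest peak, 1128, was also its first. The fifth, 37.7 kb at chr2L:102156-139846, held 17, up to 984.

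**Figure D4:**
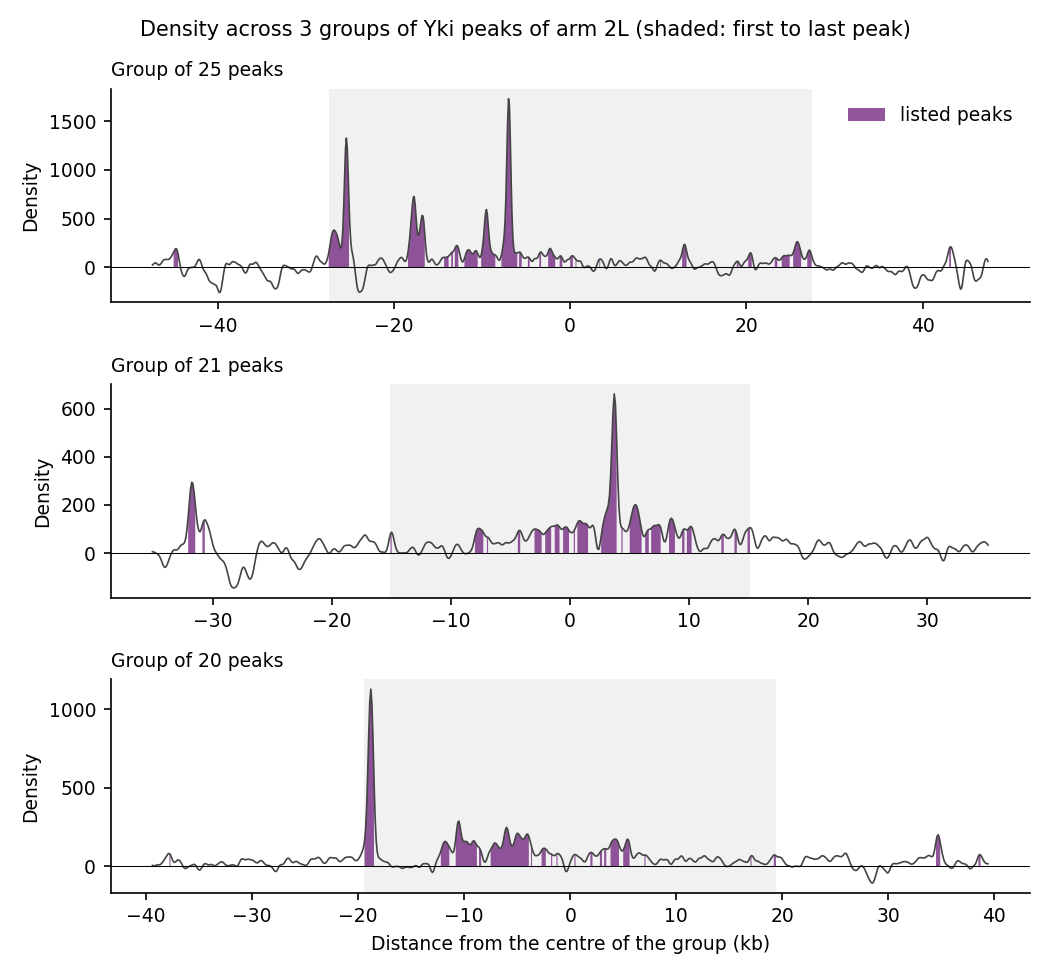
Density along the groups of 25, 21 and 20 peaks of 2L, against the distance from the group's centre in kb, with 20 kb on each side. Listed peaks are filled and the grey band runs from the first to the last peak; peaks of 500 or more number 4, 1 and 1, up to 1730, 662 and 1128, and the other peaks of each group are lower.

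Density between the peaks of a group was compared with the ground beyond it, as a description only. Intervals covered a median of 0.40 of the width of the density at 50% of its top. That width was taken at the maximum above the highest sample, which in 109 peaks is a higher one nearby. It can run on across surrounding density and other peaks, and was 5300 and 5800 bp for the 2 lowest peaks. The density at the lower edge of intervals was a median of 68.8% of the height, so samples between close intervals include the shoulders of peaks. Chaining also keeps listed peaks away from the 10 kb beyond a group. The shoulders lie in the intervals as listed and the clear 10 kb in how groups were defined. The part of either in the values was not tested. Between their peaks, outside every listed interval, the median density of a group ran from 1.53 to 75.3, with a median over the 39 groups of 37.6. In the ground 5 to 20 kb beyond their ends it was 8.35, ranging from -23.8 to 32.8. The density between peaks was the higher of the 2 in 38 groups. The exception was the group at chr2L:2874617-2889398, with 1.53 between its 6 peaks and 22.0 outside. In 7 groups no sample between the peaks was below 0. In the group of 25, however, 20.2% of the samples between peaks were below 0, down to -253.

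Groups differed in the height of their tallest peak. In 19 groups at least 1 peak reached 500. Over the 39 groups the highest peak was a median of 3.07 times the group's median height, from 1.01 times at chr2L:21153862-21178992 to 19.1 times in the group of 38. In 8 groups no peak reached 200. Among these, a group of 10 at chr2L:22427264-22443365 reached 138 at most, with 42.3 between its peaks and 0 outside. A group of 7 lay within 5.70 kb at chr2L:21309406-21315109, with a highest peak of 131 and 61.8 between peaks. A group of 8 at chr2L:8229328-8239966 reached 135, with 49.1 between peaks and 0.37 outside. In these 3 no sample between the peaks was below 0. The tallest peak stood at an end of its group in 10 of the 39 groups (25.6%), and end peaks made up a mean of 26.8% of a group's peaks.

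Peaks in groups and lone peaks differed in their flanks, in part by definition. A lone peak has no other listed peak less than 10 kb away, edge to edge. Lone peaks had a median height of 131 and a median flank density of 2.64, 2 to 5 kb away. Peaks in groups of 5 or more had a median height of 114, a median flank of 48.0 and a median difference from the flank of 58.1, against 125 for lone peaks. The upper ends went the other way, with a 95th percentile of 700 in groups and 606 in lone peaks. Peaks under 100 were 37.8% of those in groups and 21.7% of lone peaks. The median density around lone peaks fell to 51.5 and 49.1 at 0.5 kb on either side and to 0 and 4.75 at 5 kb. Around peaks in groups it was still 39.3 and 39.1 at 5 kb, and 30.7 and 34.7 at 10 kb. Membership of a group is defined by neighbouring peaks, which add to these flanks. With other listed peaks left out of the flanks, the median difference over all peaks was 100, against 95.4 with them. It was not computed for grouped and lone peaks apart, so it does not show how much neighbours add to the flanks of grouped peaks.

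**Figure D5:**
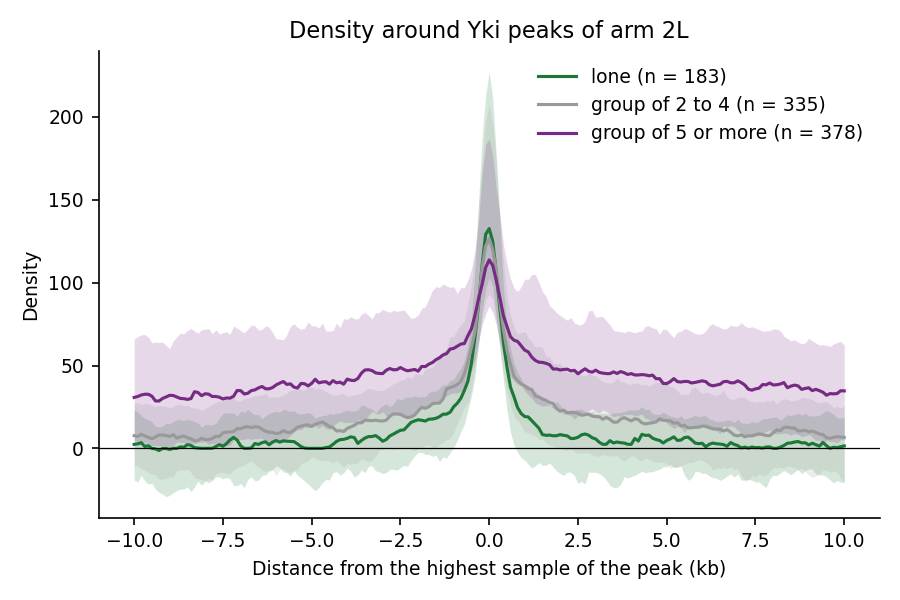
Median density (lines) and quartiles (bands) against distance from the highest sample of a peak, in kb, for lone peaks (n = 183, the first peak of the arm left out for lack of track on one side), peaks in groups of 2 to 4 (n = 335) and in groups of 5 or more (n = 378). At 5 kb the line of the large groups stays near 39, while that of lone peaks lies between 0 and 4.75.

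Nearly all peaks stood above their flanks. The median of the mean density inside peaks was 112, the median flank was 23.1 and the median difference was 95.4. With the highest sample inside set against the highest of the flank, the median difference was 38.1. The mean inside exceeded the flank in 828 peaks (92.3%, exact binomial interval 90.4% to 94.0%), and in 99.1% of peaks with other listed peaks left out of the flanks. Of the other 69, 63 were in groups of 5 or more, and the highest of the 69 reached 224. All 184 lone peaks stood above their flanks. Both sides were close, with median densities of 21.7 towards the telomere and 21.9 towards the centromere, the former higher in 52.1% of peaks. Because list and track were taken to describe the same libraries, these values describe the list and are no independent test of it. The heights of neighbouring peaks were only weakly related, with a rho of 0.26 in the 187 pairs at most 500 bp apart. It was 0.12 in the 363 pairs further apart but within 10 kb. This was close to the 0.099 of 215 pairs 10 to 50 kb apart and the 0.11 of 131 pairs further apart.

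Set beside 3L and 3R, arm 2L held more of its peaks in close company and more low peaks, and no test of these differences was made. Peaks in groups of 5 or more were 42.1% on 2L, 33.6% on 3L (30.5% to 36.9%) and 34.8% on 3R (31.9% to 37.9%). They formed 39, 35 and 44 groups, and the peaks of a group are counted in or out together. These intervals treat peaks as independent, so they are too narrow to compare the arms. Groups of 10 or more numbered 12 on 2L, 5 on 3L and 10 on 3R and held 23.0%, 11.5% and 15.2% of the peaks. Gaps of 500 bp or less were 20.9% of all on 2L, 15.8% on 3L and 14.1% on 3R. Peaks under 100 were 32.0% on 2L, 23.8% on 3L and 25.5% on 3R, and the median heights were 122, 137 and 136. The share of peaks of 500 or more was close, at 7.80%, 8.37% and 8.04%. The background MAD was 14.9, 14.7 and 16.9.

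With intervals 500 bp apart or less joined, 29.7% of regions were in groups of 5 or more on 2L, 22.4% on 3L and 23.7% on 3R. Among the higher peaks alone 2L was the lowest in the share of peaks in groups and in peaks per Mb, by small margins. With only peaks at or above the list's median height of 135, 388 peaks remained on 2L, 433 on 3L and 507 on 3R. Their groups of 5 or more then numbered 8, 10 and 11 and held 15.2%, 15.5% and 15.8% of the peaks. Peaks per Mb were 16.9, 17.7 and 18.2, and neighbours under 5 kb were 27.4%, 28.5% and 27.7%. The median distance between midpoints stayed shortest on 2L, at 17308 bp against 20229 bp on 3L and 19452 bp on 3R. With all peaks it was 5291, 7744 and 7430 bp. The lower median height of grouped than of lone peaks on 2L, a difference of -17.7, was -5.54 on 3L and -0.90 on 3R, and with the same height limit it was -5.99, 65.2 and 4.43.

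The listed peaks took up 2.26% of the samples of 2L and held 29.1% of its density above 0, against 31.0% on 3L and 32.5% on 3R. This share differed along 2L, from 5.00% in the window at 10 to 11 Mb to 45.1% at 12 to 13 Mb and 50.6% in the first Mb. Of 381 runs of samples at or above the list's median height, 8 touched no listed interval.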

How the data were processed

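The track's header joins 2 library codes and 1 input code that match no sample label, and the list names no sample; that both files combine the ChIP libraries against the input is an assumption. Groups were taken from the sample titles, while the description fields name other material. The labels do not say whether the ChIP libraries came from separate cultures. The authors deposited a list of intervals (chromosome, start, end) without heights. The density score was smoothed and background-subtracted by the authors before it was deposited, per the file headers. CASAVA 1.7.0, BWA, Bowtie and the build dm3 stand in the submitters' processing notes. The step each tool served is not given in the sources used here, nor is a peak caller. Starts were raised by 1.

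From these, counts, heights, flanks, gaps and groups were computed with Python 3.11.15, numpy 2.4.6 and scipy 1.17.1. Samples were assigned to an interval by their centres. A tolerance of 0.001 defined a density of 0; windows with under 50% of their length sampled were left out. The scale of the score came from bumps of at most 17 samples between samples at 0, kept within 2% of the most frequent sum. Poisson and binomial intervals are exact, cover counting error only and treat peaks as independent. Depth per library is unknown. The named regions followed a rule: the 10 highest, 5 widest and 3 lowest peaks, the 5 largest groups, the 5 longest gaps and the highest peak of a window; the first and last peaks and other groups were picked after their values were seen. The members and rules were chosen with earlier results of these data known. The count of groups, the median width and the heights were tested on a simulated track with planted peaks. Its intervals were given, so their width and grouping were set in advance. The other measures were not tested in this way. Motifs were not analysed here, since no genome of the same build was used.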

Additional observations from a re-analysis of the deposited data

Results flagged for a closer look

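The scaffold of chromosome 2L heterochromatin (2LHet), which entered no comparison above, held 2 listed peaks over 356 kb, at 32636 to 33060 and 33336 to 33646. They reached 97.9 and 81.4, while the median density of the scaffold was 0. They were picked out because they are a signal in a sequence outside the arm.

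On 2L itself, 8 runs of samples reached the list's median height outside every listed interval. The highest reached 196 at chr2L:1164104-1164504, 5229 bp from the nearest peak. Of the 8, 6 lay before 2 Mb of the arm, where the background spread was also largest.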

How the results depend on the processing

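Over 13 results, 72 alternatives were computed on 2L. Of these, 34 left the value within its interval and 38 moved it. Intervals were exact binomial or Poisson for medians, rates and shares, except the share of density above 0 inside peaks. For that share, and for counts, ratios and differences, they were 1.5 times. A direction was scored only for peak minus flank and grouped minus lone height, and neither turned. The order of the arms in peaks per Mb did turn with intervals joined and with the height limit, as given above. The settings without the first 1 Mb and with only intervals whose top is a local maximum were chosen after seeing the data. With only peaks at or above the list's median height, peaks per Mb were 16.9, median width 742 bp, median height 228, peak minus flank 174, peaks above flanks 98.2%, midpoint distance 17308 bp, neighbours under 5 kb 27.4%, groups of 5 or more 8 with 15.2% of peaks, windows of 100 kb without a peak 40.9% (26.5% with all peaks) and grouped minus lone height -5.99. With intervals 500 bp apart joined, the first 7 of these were 30.9, 508 bp (507.5), 129, 100.04, 94.5%, 10087 bp and 34.6%, and groups held 29.7%. With local maxima only they were 34.3 peaks per Mb, 465 bp, a height of 131, a difference of 101.1, a distance of 7131 bp, 43.2% under 5 kb and 35.4% in groups. Without the first 1 Mb there were 36.2 peaks per Mb, and 94.1% of peaks lay above their flanks. Mean in place of highest density gave a median height of 112. The peak minus flank difference was 100.3 with other peaks left out of the flanks, with 99.1% of peaks above them, and 38.1 with highest values. Neighbours under 10 kb were 60.7%. Groups chained under 5 and 20 kb held 29.4% and 60.5% of peaks. The richest window was 2.86 times the median at 1 Mb and 4.59 times at 0.5 Mb. Windows without a peak were 42.2% at 50 kb and 7.83% at 200 kb. Fewer or merged intervals and other distances change these values by construction; for the height, flank and grouped-minus-lone values the cause was not tested. No paired analysis was possible because neither the track nor the list gives values by library. For the same reason no library was left out in turn. Motif shares were not run.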
